A study of Homo sapiens with 15 samples.

Results

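The 9 genes HHIP, PTCH1, SMO, GLI1, GLI2, GLI3, SUFU, GAS1 and BOC carry or restrain the Hedgehog signal, and they were followed among the 60617 genes counted by RNA sequencing in 12Z cells, an immortalised line of human endometriotic epithelial cells. The set was built around HHIP, which was picked on measured values, for its large fall with insulin in these libraries. The other 8 were taken as core pathway genes, with earlier results of these data known. All 9 passed a filter that asked for at least 1 count per library on average and that left 23184 genes. The 15 libraries fall into 5 groups of 3. The first group received non-targeting siRNAs as a pool, empty pBabe plasmid and vehicle (siNT empty vehicle, labelled as replicates 4 to 6). The other 4 groups all carried a pool of siRNAs against RSAD2, the gene of the antiviral protein viperin, with empty pBabe or pBabe encoding PIK3CA H1047R, a form of the PI3K catalytic subunit with raised activity, and with vehicle or 100 nM insulin for 24 hours (labelled as replicates 1 to 3). Insulin and H1047R without RSAD2 siRNA are therefore not analysed here, and the siRNA cannot be told apart from the numbering of the replicates. The plasmid was transiently transfected into 1 cell line, and insulin followed 4 hours without serum.

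Gene counts totalled 16.1 to 39.7 M per library, with a median of 24.3 M. RSAD2 was at 3.003 to 3.69 CPM in the 3 siNT libraries and at 0.0768 to 1.41 CPM in the 12 others, and PIK3CA was at 76.4 to 109 CPM without the H1047R plasmid and 160 to 223 CPM with it. CPM is the count per M counts of TMM-scaled library size. Keratins 8, 18 and 19 were abundant (at least 414 CPM), whereas the epithelial adhesion genes CDH1 and EPCAM stayed at or below 1.00 and 0.61 CPM, and the mesenchymal gene VIM was at 1490 to 2400 CPM. The summed level of 8 epithelial markers was 2360 to 2400 CPM with siNT and 1760 to 2150 CPM with RSAD2 siRNA. That of 8 stromal markers was 4580 to 5190 CPM in empty-vector insulin cells and 5400 to 5490 CPM in their vehicle controls. With siNT the stromal sum was 5590 to 5860 CPM, most of it VIM and COL1A1. Between siNT and RSAD2 siRNA in vehicle-treated empty-vector cells, all 8 stromal markers were called, 3 higher and 5 lower, and 4 of 8 epithelial markers were called lower. DCN went from a mean of 47.9 to 27.4 CPM, LUM from 377 to 236 CPM and ACTA2 from 5.79 to 11.6 CPM, named after their values were seen. These moved in the comparison in which HHIP and PTCH1 were higher. The endothelial markers summed to at most 12.1 CPM. The immune markers summed to 4.80 to 12.4 CPM in vehicle-treated empty-vector cells with RSAD2 siRNA and to at most 6.18 CPM in the other groups. Among them PTPRC reached 9.03 CPM in its highest library, against a median of 0.909 CPM. The group with the highest immune sum holds empty-vector vehicle library 3, described below. The part of these differences in the values below was not tested. A pair of libraries stood apart: empty-vector vehicle library 3 had 400 genes at more than 3 times their level in every other library, against at most 2 genes elsewhere, and empty-vector insulin library 2 differed most from its own group. RNA came from whole cultures, so fewer cells that express a gene and less RNA per cell cannot be told apart.

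Hedgehog ligands are secreted proteins that bind the receptor PTCH1. Without ligand, PTCH1 keeps the membrane protein SMO inactive, and with ligand SMO accumulates in the primary cilium and releases the GLI transcription factors from their inhibitor SUFU. GLI2 and GLI3 are the first to respond and can be processed into repressors, whereas GLI1 is an activator and itself a target gene. PTCH1 and HHIP are targets as well, and both proteins bind ligand, which limits the signal. In the uterus, ligand from the epithelium acts on the stroma beneath it.

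The ligands were scarce in these cells. SHH reached at most 2 counts and IHH at most 3 counts in any library, so neither was tested. DHH had 0 to 12 counts, or 0 to 0.45 CPM. The receptors and transducers were present at moderate levels. Scaled by exon length, which allows genes to be compared with each other, the mean over all libraries was highest for GAS1 at 14.7 CPM per kb. SMO followed at 5.64, SUFU at 5.18, GLI3 at 3.73, GLI2 at 2.71, PTCH1 at 1.76, HHIP at 1.04, GLI1 at 0.959 and BOC at 0.885 CPM per kb. HHIP had the widest range among the 9, with 6.63 times more CPM in its highest library than in its lowest, against 1.26 to 1.97 times for the other 8. This place follows from the choice of HHIP for a large fall with insulin in these libraries, so it is a description.

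HHIP, the Hedgehog-interacting protein, binds ligands at the cell surface and keeps them from PTCH1. Its gene (ENSG00000164161.10) lies on the plus strand of hg38 chromosome 4 from 144646156 to 144745271. Libraries with siNT held 8.65, 6.94 and 6.26 CPM. In vehicle-treated cells with RSAD2 siRNA and empty vector the level was 24.5, 22.0 and 20.1 CPM. All 3 libraries were thus above the siNT libraries, and HHIP was 3.03-fold higher, a log2 fold change of 1.60 ± 0.14 (SE, n = 3 against 3, adjusted p = 4.87e-10, edgeR). Among 13639 genes with a mean of at least 1 CPM, this was the 53rd largest rise. The same vehicle libraries are the controls of an insulin comparison on which HHIP was chosen, a choice that favours high values in them. The p-value and the rank are therefore descriptions and not an independent test. The H1047R vehicle cells, the controls of the other insulin comparison, held 20.6, 19.1 and 20.3 CPM, again above every siNT library.

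With insulin, HHIP was at 4.11, 7.26 and 3.69 CPM in empty-vector cells and at 7.22, 6.30 and 8.503 CPM in H1047R cells. Every insulin library lay below every vehicle library with the same siRNA. These are the values HHIP was chosen for, so they are given without a test: the mean was 22.2 ± 2.19 CPM (SD) with vehicle against 5.02 ± 1.95 CPM with insulin in empty-vector cells, and 20.04 ± 0.791 against 7.34 ± 1.11 CPM in H1047R cells. The fitted log2 fold changes were -2.12 and -1.42, and HHIP had the 10th and the second largest fall among the genes at or above 1 CPM. In order from low to high, the groups were empty-vector insulin, siNT, H1047R insulin, H1047R vehicle and empty-vector vehicle. The ranges of neighbouring groups in that order overlapped, except for the gap between H1047R insulin, with at most 8.503 CPM, and H1047R vehicle, with at least 19.1 CPM.

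H1047R itself was not followed by a called difference in HHIP. In vehicle-treated cells the log2 fold change was -0.15 (95% interval -0.41 to 0.11, adjusted p = 0.697, edgeR). In insulin-treated cells it was 0.55 (0.20 to 0.90, adjusted p = 0.193). Here the call depended on 1 library and on the filter. Without empty-vector insulin library 2, which had the highest HHIP level of its group, HHIP was called, at 0.93 (adjusted p = 0.00239). With all 15 libraries and no filter on low counts it was called as well, at 0.55 (adjusted p = 0.00326). Over all alternatives the adjusted p ran from 3.75e-04 to 0.702. The libraries on both sides of this comparison, and of that in vehicle-treated cells, are among those on which HHIP was chosen. These p-values are therefore descriptions and not independent tests.

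HHIP-AS1 (ENSG00000248890.2) is a long non-coding RNA on the opposite strand that overlaps HHIP. The stretch shown lies between a RefSeq start site of each RNA. In GENCODE, HHIP-AS1 reaches position 144661357, inside HHIP, so that the stretch is not the start of every HHIP-AS1 model. It covers chr4:144646020-144646155 on the plus strand (RefSeq, GRCh38.p14), is 136 bases long and 68.4% G or C, and lies in no annotated exon. Capitals mark TGACGTCA, the palindrome known as the cAMP response element or CRE.
HHIP to HHIP-AS1 stretch: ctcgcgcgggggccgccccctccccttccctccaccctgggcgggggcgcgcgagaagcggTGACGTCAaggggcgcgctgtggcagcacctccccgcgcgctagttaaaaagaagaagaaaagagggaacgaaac
This motif was searched after the sequence had been seen. It occurs in 1.84% of 34796 promoter windows of 300 bases (250 before and 50 after a RefSeq start site, either strand). The GLI motif GACCACCCA, in 0.239% of windows, and the FOXO motif GTAAACA, in 3.42%, had no match in the window of HHIP or of HHIP-AS1. A match is a string of letters and not evidence of binding.

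HHIP-AS1 changed in the same direction as HHIP. It was at 1.47, 1.40 and 0.987 CPM with siNT, and at 3.80, 3.15 and 2.64 CPM in vehicle-treated empty-vector cells with RSAD2 siRNA, a rise of 1.30 ± 0.24 on the log2 scale (adjusted p = 1.51e-04, edgeR). Insulin libraries of the same vector held 1.06, 1.29 and 1.43 CPM, and the log2 fold change was -1.36 ± 0.25 (adjusted p = 5.5e-04). Both calls held under every alternative run, but the comparisons share the empty-vector vehicle libraries and are not independent. In H1047R cells it was at 2.33, 1.74 and 2.48 CPM with vehicle and 1.45, 0.787 and 1.28 CPM with insulin. The groups did not overlap, but the log2 fold change of -0.85 did not pass (adjusted p = 0.0801). The RNA is scarce, with 14 to 110 counts per library. HHIP has 11939 exon bases and HHIP-AS1 has 2389, of which 813 are shared, and strand alone separates reads from these bases. Over all genes, the counts of the opposite strand setting made up 5.77 to 6.50% of the counts of both settings. HHIP-AS1 counts amounted to 9.1 to 38.7% of the HHIP counts, highest in an empty-vector insulin library where HHIP had 62 counts. How far misassigned HHIP reads contribute was not tested.

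**Figure D1:**
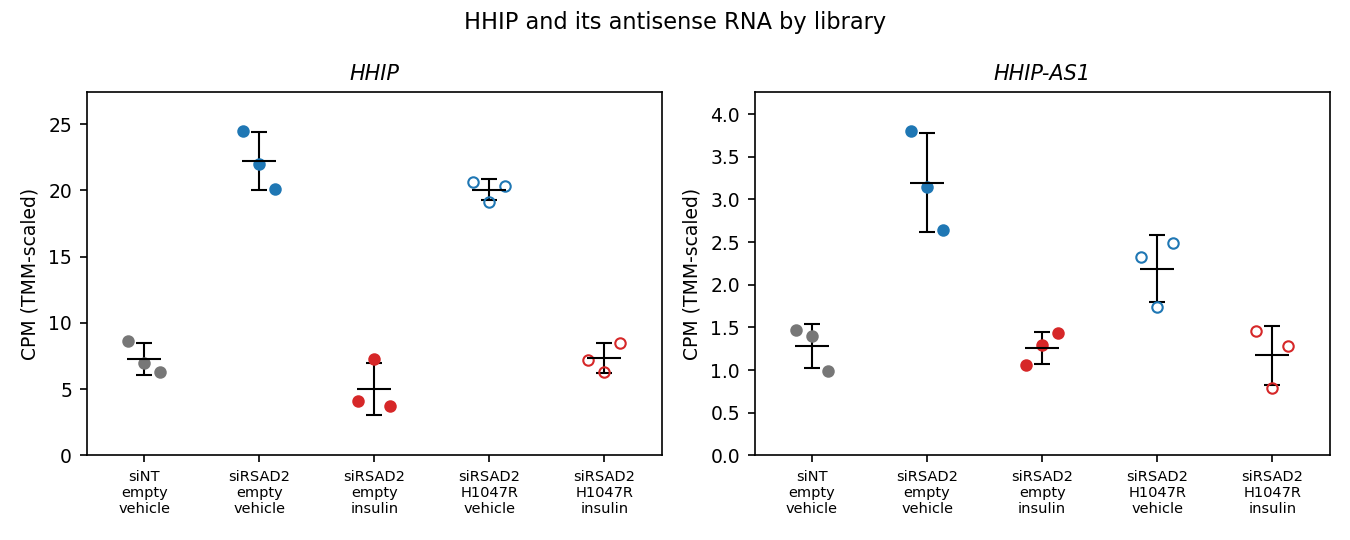
HHIP (left) and HHIP-AS1 (right) in CPM for each of the 15 libraries in the 5 groups; points are libraries, horizontal lines the group means and bars the SD (n = 3). HHIP reached at least 19.1 CPM in the 6 vehicle libraries with RSAD2 siRNA and at most 8.65 CPM in the 9 others, and HHIP-AS1 spanned 0.787 to 3.80 CPM.

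GAS1 and BOC are surface co-receptors that help ligand to bind PTCH1. GAS1 (ENSG00000180447.7, chromosome 9, minus strand, 86944362 to 86947506) was first known as a gene raised in growth-arrested cells. It had the smallest adjusted p with insulin among the 8 members other than HHIP, which were chosen with earlier results of these data known. It held 52.8, 59.0 and 53.4 CPM in empty-vector vehicle cells and 32.4, 30.9 and 36.8 CPM with insulin. H1047R cells had 49.2, 51.7 and 53.9 CPM with vehicle and 35.2, 32.4 and 33.3 CPM with insulin. All 6 insulin libraries were below all vehicle libraries. GAS1 fell by 0.73 ± 0.07 on the log2 scale with empty vector (1.66-fold, adjusted p = 9.18e-09, edgeR) and by 0.62 ± 0.07 with H1047R (1.53-fold, adjusted p = 4.68e-07). No library is shared between these comparisons, and both calls held under every alternative run. The falls ranked 123rd and 87th among the genes at or above 1 CPM. RSAD2 siRNA gave no called difference, with 60.9, 54.4 and 55.7 CPM in the siNT libraries and a log2 fold change of -0.05 (95% interval -0.19 to 0.08, adjusted p = 0.656). In the group where HHIP was highest, the GAS1 range overlapped that of siNT.

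BOC (ENSG00000144857.14, chromosome 3, plus strand, 113211003 to 113287459) was at 9.78, 12.3 and 9.51 CPM with vehicle and 8.46, 8.16 and 7.03 CPM with insulin in empty-vector cells. BOC was lower with insulin, by a log2 fold change of -0.40 ± 0.12 (adjusted p = 0.0304, edgeR). This call was lost without empty-vector vehicle library 2, at -0.29 (adjusted p = 0.188), without empty-vector insulin library 3, at -0.35 (adjusted p = 0.11), and with unstranded counts, at -0.36 (adjusted p = 0.0644). BOC shares 530 exon bases with CFAP44 on the opposite strand. In H1047R cells BOC was at 9.53, 9.34 and 8.37 CPM with vehicle and 7.26, 7.14 and 8.33 CPM with insulin, and the log2 fold change of -0.25 did not pass (adjusted p = 0.404). Its levels with siNT, 10.1, 11.2 and 10.6 CPM, overlapped those with RSAD2 siRNA.

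PTCH1 (ENSG00000185920.16, chromosome 9, minus strand, 95442980 to 95517057) was the other member called with RSAD2 siRNA. It was at 26.1, 27.7 and 29.4 CPM with siNT and at 34.7, 33.2 and 36.1 CPM with RSAD2 siRNA, a rise of 0.33 ± 0.07 on the log2 scale (1.253-fold, adjusted p = 8.48e-04, edgeR), and the groups did not overlap. Insulin brought 29.3, 31.3 and 26.7 CPM in empty-vector cells, a log2 fold change of -0.25 ± 0.07 (adjusted p = 0.0293). That call was lost without empty-vector vehicle library 1, at -0.25 (adjusted p = 0.0581), without vehicle library 3, at -0.23 (adjusted p = 0.117), and without insulin library 3, at -0.21 (adjusted p = 0.121). The siRNA and the insulin comparison share the empty-vector vehicle libraries. In H1047R cells PTCH1 was at 32.1, 32.6 and 30.1 CPM with vehicle and 29.0, 27.5 and 30.01 CPM with insulin, and the log2 fold change was -0.13 (adjusted p = 0.532).

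Of the members' promoter windows searched, 1 held the GLI motif, in PTCH1, whose response to GLI is well known. Part of that window is shown for this match. It is chr9:95509400-95509468 on the minus strand (RefSeq, GRCh38.p14), upstream of a start site at 95509266, with the match, written here as the reverse complement of GACCACCCA, in capitals.
PTCH1 window: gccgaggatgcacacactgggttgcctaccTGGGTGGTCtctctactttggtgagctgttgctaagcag
In all, 14 windows of 7 members and HHIP-AS1 were searched. The FOXO motif was found in 3 of them, in windows of BOC and PTCH1, and the window of GAS1 held none of the 3 motifs. For GLI1 and GLI3 no window was searched.

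SMO (ENSG00000128602.11, chromosome 7), the membrane protein that passes the signal on, was not called in any comparison with all 15 libraries. Its levels were 28.4, 30.6 and 28.5 CPM with siNT and 23.5, 26.2 and 27.5 CPM with RSAD2 siRNA, which do not overlap. The log2 fold change of -0.18 did not pass (95% interval -0.38 to 0.01, adjusted p = 0.2, edgeR), but without both libraries that stood apart it was -0.24 and passed (adjusted p = 0.0344). The empty-vector insulin libraries were the most spread, with 31.9, 21.2 and 27.5 CPM. SUFU (ENSG00000107882.11, chromosome 10), which holds GLI proteins inactive, stayed between 31.2 and 40.5 CPM, and none of its comparisons passed with all libraries. Its log2 fold change was 0.14 with RSAD2 siRNA (-0.00 to 0.28, adjusted p = 0.163), and 0.22 without empty-vector vehicle library 1 of RSAD2 siRNA, where it passed (adjusted p = 0.0353). It was -0.16 with insulin in empty-vector cells (-0.30 to -0.02, adjusted p = 0.199).

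The GLI factors did not share a sign with RSAD2 siRNA or with insulin. With H1047R, GLI1, GLI2 and GLI3 were all below 0 in vehicle-treated and in insulin-treated cells, and none was called. GLI3 (ENSG00000106571.14, chromosome 7), the main source of repressor, was at 59.0, 58.1 and 53.7 CPM with vehicle and 50.9, 45.1 and 45.8 CPM with insulin in empty-vector cells. GLI3 was lower with insulin, by a log2 fold change of -0.27 ± 0.08 (adjusted p = 0.0288, edgeR), and leaving out any of 4 libraries (vehicle 1 or 2, insulin 2 or 3) ended that call, with values of -0.23 to -0.26 and an adjusted p of at most 0.0882. In H1047R cells the log2 fold change was -0.19 (adjusted p = 0.288), with 53.6, 57.0 and 48.6 CPM against 49.98, 46.5 and 44.3 CPM. In a fit on these 2 groups alone it was called (adjusted p = 0.0263). GLI2 (ENSG00000074047.21, chromosome 2), the main activator upstream of GLI1, ranged from 19.0 to 24.1 CPM over all libraries, and none of its comparisons passed. GLI1 (ENSG00000111087.10, chromosome 12), the target most often used to read pathway activity, had 63 to 149 counts per library. It was at 5.33, 4.35 and 5.11 CPM with siNT and 4.01, 4.00 and 3.92 CPM with RSAD2 siRNA, a log2 fold change of -0.31 (95% interval -0.61 to -0.01, adjusted p = 0.146). With insulin it was at 4.51, 5.20 and 5.24 CPM in empty-vector cells and 5.13, 4.11 and 4.12 CPM in H1047R cells, against 4.08, 3.31 and 3.19 CPM in H1047R vehicle cells. The log2 fold changes were 0.32 (0.02 to 0.62, adjusted p = 0.226) and 0.33 (0.02 to 0.64, adjusted p = 0.397). GLI1 therefore had the opposite sign to HHIP and PTCH1 in each of these comparisons, where HHIP was chosen for its values with insulin. The GLI1 groups did not overlap in any of them, but none of its values passed the test. How often groups fail to overlap over all genes was not computed. The siRNA comparison and the insulin comparison with empty vector share the empty-vector vehicle libraries. With H1047R in vehicle-treated cells the sign was shared, at -0.18 for GLI1, -0.15 for HHIP and -0.13 for PTCH1, with none called.

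**Figure D2:**
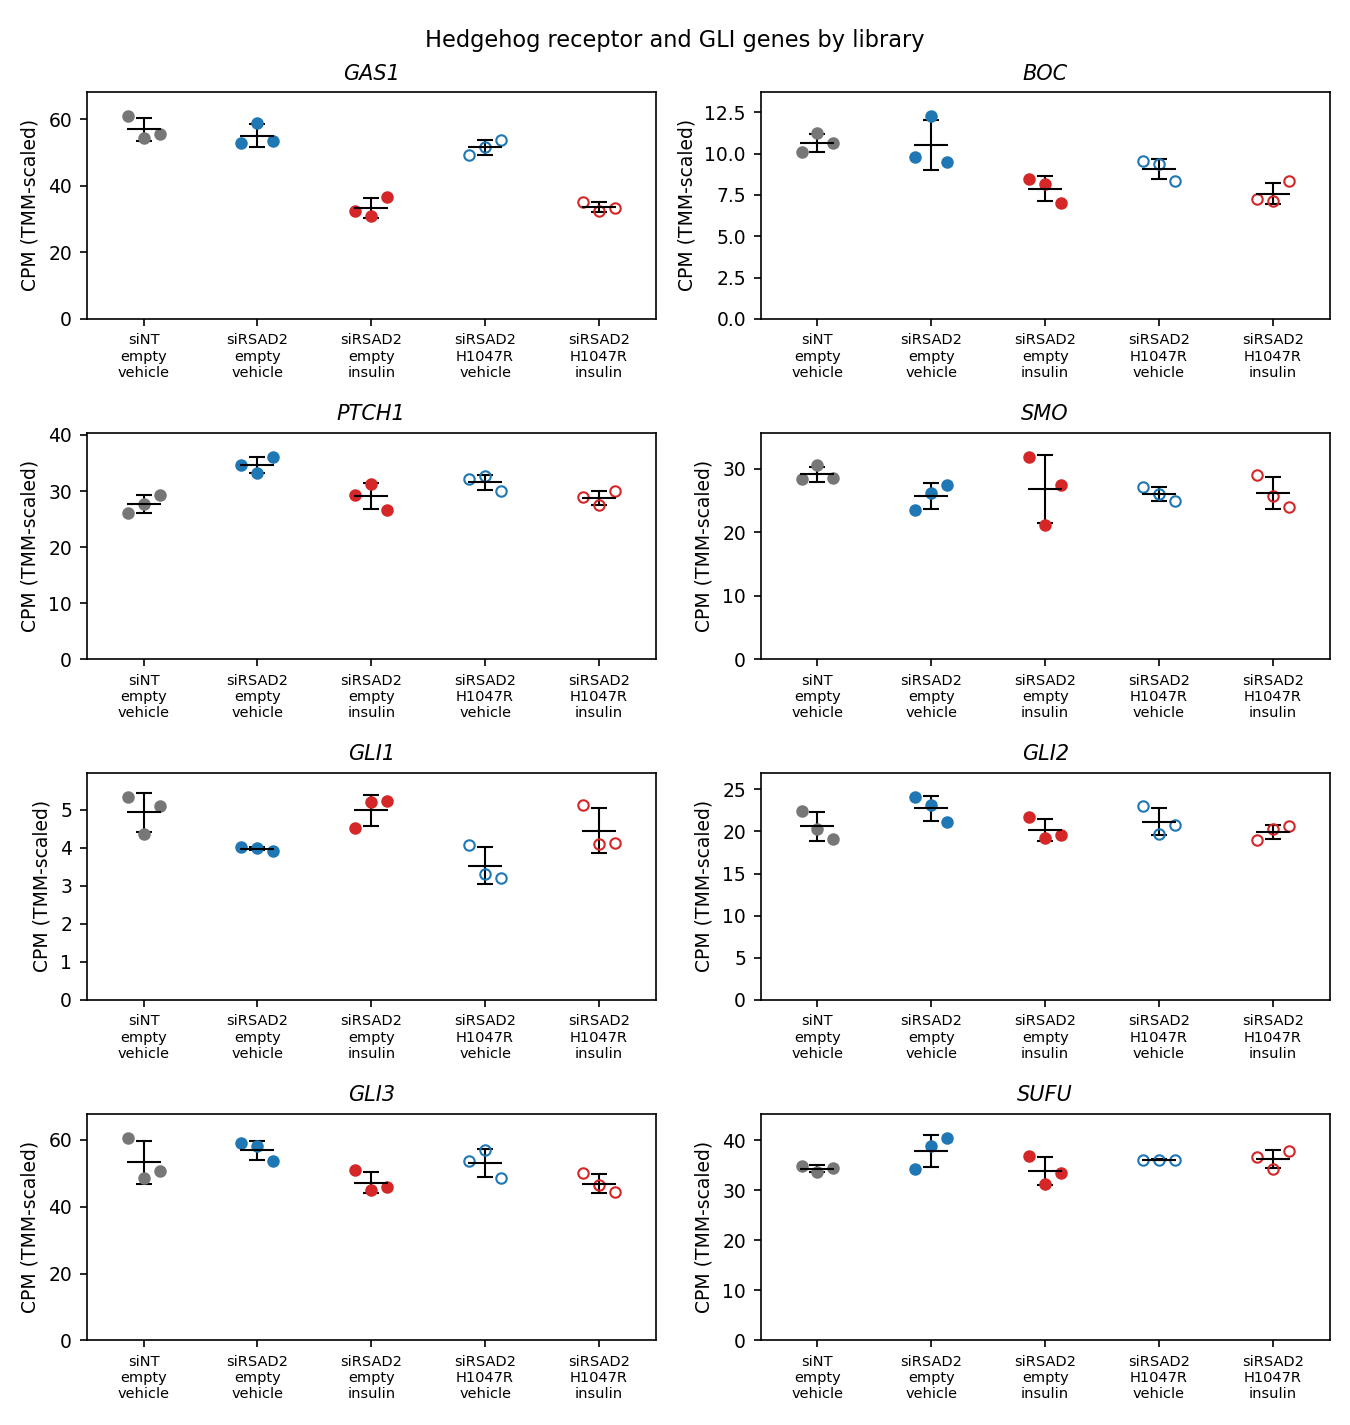
Levels in CPM of the 8 members other than HHIP in each library, by group, with points for libraries, horizontal lines for means and bars for the SD (n = 3); each vertical axis starts at 0 and has its own scale. GAS1 separates the insulin libraries, at 30.9 to 36.8 CPM, from the others, at 49.2 to 60.9 CPM, whereas SMO and SUFU overlap between vehicle and insulin.

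Across the members, RSAD2 siRNA gave 2 called of 9, HHIP and PTCH1, both higher. HHIP was chosen on comparisons that use the same empty-vector vehicle libraries with RSAD2 siRNA, and without it the count was 1 of 8. Of all genes tested 19.5% were called there, 9.82% as higher, so the share of members is close to that background. It covers 23184 genes, of which 13639 were at or above 1 CPM, as all 9 members were. The share among those 13639 was not computed. The members' median log2 fold change was 0.09. Insulin in empty-vector cells gave 4 called of the 8 members other than HHIP, namely GAS1, BOC, GLI3 and PTCH1, all lower, where 6.28% of all genes were called and 4.19% were called lower. The median over these 8 was -0.21, against 0.00 over all genes. These 8 were chosen with earlier results of these data known. Only GAS1 held in a fit of the compared groups alone, where the count was 1, and leaving out single libraries gave 1 to 4. Insulin in H1047R cells gave 1 of 8, GAS1, where 2.47% of all genes were called and 1.99% called lower.

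H1047R gave no called member. With vehicle, 0 of 9 passed in edgeR, where 1.36% of all genes were called. None had an unadjusted p below 0.05 and DESeq2 called none. With insulin, 0 of 9 passed, where 0.285% of all genes were called. HHIP alone had an unadjusted p below 0.05, and DESeq2 called none. All libraries of both comparisons are among those on which HHIP was chosen, so its part in these counts is a description. Without HHIP, 0 of 8 passed in each. The interaction asks whether insulin acted differently with H1047R than with empty vector. It gave 0 of the 8 members other than HHIP in edgeR and in DESeq2, none below an unadjusted 0.05, and 0% of all genes were called, with 1611 genes below an unadjusted 0.05. For GAS1 the difference between the responses was 0.11 on the log2 scale (95% interval -0.09 to 0.31, adjusted p = 0.853). For HHIP it was 0.70, given as a description. Without empty-vector insulin library 2 that difference was 1.09.

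**Figure D3:**
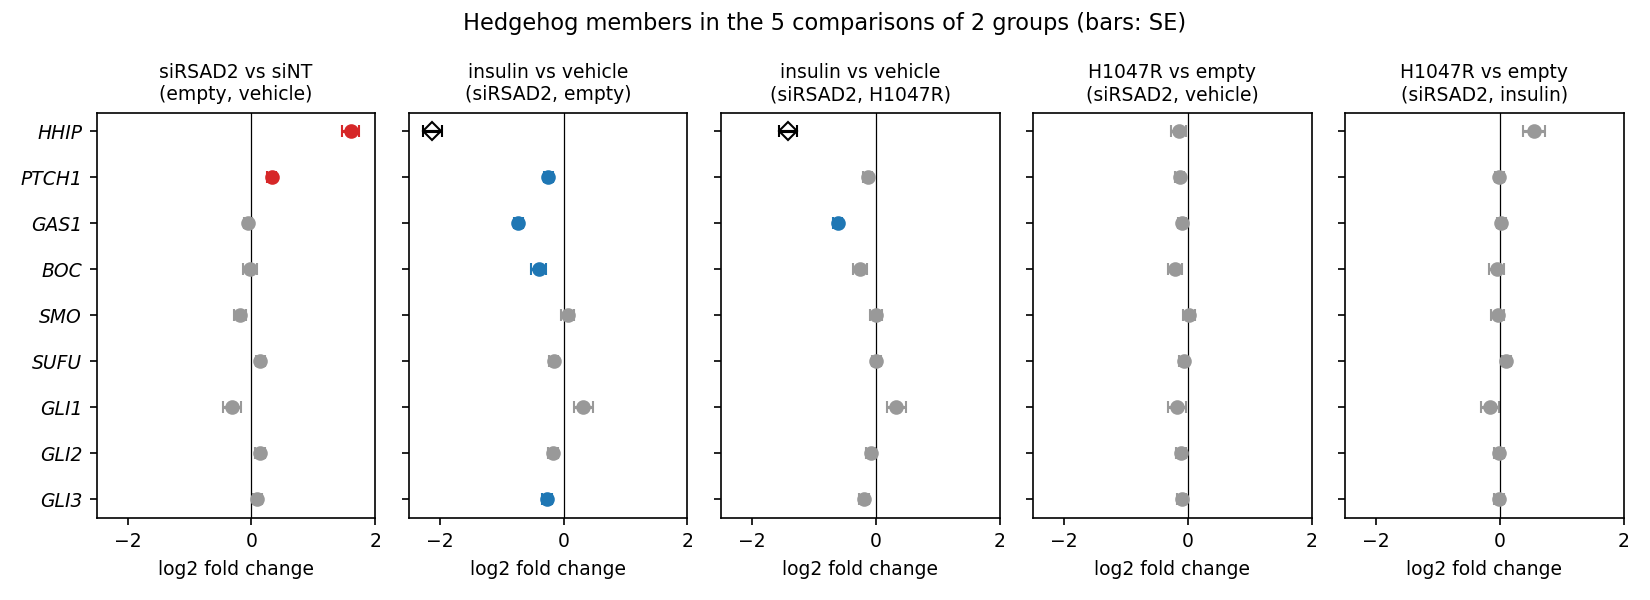
Log2 fold changes (points) with their SE (bars) of the 9 members in the 5 comparisons of 2 groups. Red and blue points passed the edgeR test as higher and lower, grey points did not, and open diamonds are the HHIP values of -2.12 and -1.42 on which it was chosen, shown with no test.

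The other genes of the pathway were described from a list of 74, of which 66 were tested. The siRNA comparison and the insulin comparison with empty vector share the empty-vector vehicle libraries. Opposite changes of a gene in these comparisons are therefore not independent, here and in the lists below. With RSAD2 siRNA 17 were higher and 8 lower, where 19.5% of all genes were called and 9.82% were called higher. Their median log2 fold change was 0.07, against 0.02 over all genes. Insulin in empty-vector cells gave 2 higher and 9 lower (median -0.02, all genes 0.00), where 6.28% of all genes were called and 4.19% were called lower. Insulin in H1047R cells gave 4 lower and none higher, beside 2.47% of all genes called and 1.99% called lower. H1047R gave 2 lower with vehicle, beside 1.36% of all genes called, and 0 with insulin in edgeR (0.285% of all genes), where 9 had an unadjusted p below 0.05 and DESeq2 called none. The interaction gave 0 in both tools, with 5 below an unadjusted 0.05.

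Among 18 tested GLI target genes, 7 were higher and 2 lower with RSAD2 siRNA, beside 19.5% of all genes called and 9.82% called higher, and the median log2 fold change was 0.21. FOXL1, a forkhead factor of mesenchyme beneath epithelia, rose by 0.82 ± 0.12 (adjusted p = 4.81e-06, edgeR). NR2F2, the nuclear receptor COUP-TFII of the uterine stroma, rose by 0.33 ± 0.04 (adjusted p = 1.32e-06). WNT5A, a secreted Wnt ligand, fell by 0.40 ± 0.06 (adjusted p = 8.57e-06). Insulin in empty-vector cells gave 4 lower and none higher in this list, beside 6.28% of all genes called and 4.19% called lower, with a median of -0.13. SFRP1, a secreted Wnt antagonist, fell by 0.48 ± 0.04 (adjusted p = 2.59e-10), from 1220, 1211 and 1220 CPM to 882, 887 and 848 CPM. It had risen by 0.27 ± 0.04 with RSAD2 siRNA, and it fell by 0.36 ± 0.04 with insulin in H1047R cells (adjusted p = 1.63e-07), with all 3 calls held under every alternative run. NR2F2 fell by 0.20 with insulin in empty-vector cells (adjusted p = 0.00459) and by 0.23 with H1047R in vehicle-treated cells (adjusted p = 0.00499). The first of these NR2F2 calls was lost in 2 of 24 alternatives and the second in 1 of 24. The remaining calls with insulin, chosen after their values were seen, were CCND1 (cyclin D1) at -0.33 and the heart and decidua factor HAND2 at -0.28. Most of these targets also answer to other pathways.

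In the list of 21 cilium and SMO transport genes, 6 were higher and 3 lower with RSAD2 siRNA (19.5% of all genes called, 9.82% higher), and the median was 0.02. ARRB1, an arrestin, fell by 0.45 ± 0.07 (adjusted p = 7.13e-06, edgeR), and IFT88, a ciliary transport protein, fell by 0.43 ± 0.10 (adjusted p = 0.00131). With insulin in empty-vector cells IFT88 was the single call higher, at 0.40 ± 0.10 (adjusted p = 0.0102), and 4 were lower, where 6.28% of all genes were called. EVC, a cilium protein that binds SMO, rose by 0.25 with RSAD2 siRNA and fell with insulin by 0.20 in empty-vector cells and by 0.23 in H1047R cells (adjusted p = 0.0116). TULP3 and CCND1, chosen after their values were seen, complete the 4 calls with insulin in H1047R cells, at -0.18 and -0.22. Leaving out single libraries or other alternatives ended the call of EVC with insulin in 6 of 24 cases with either vector, and that of IFT88 in 4.

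Among 19 kinases and GLI-processing genes, 3 were higher and 1 lower with RSAD2 siRNA, a share close to the 19.5% of all genes called. DYRK2, a kinase that phosphorylates GLI2, rose by 0.51 ± 0.06 (adjusted p = 8.37e-08, edgeR), and NUMB, an adaptor in GLI1 turnover, fell by 0.36 ± 0.06. CSNK1E, a casein kinase, rose by 0.20 with RSAD2 siRNA and fell by 0.23 with insulin in empty-vector cells, in comparisons that share the vehicle libraries. The rise lost its call in 1 of 23 alternatives and the fall in 2 of 24. GSK3A, a kinase that takes part in GLI processing, was lower by 0.35 ± 0.07 with H1047R in vehicle-treated cells (adjusted p = 0.0069), a call lost in 2 of 24 alternatives. Of 6 tested ligand processing and release genes, SCUBE3 rose by 0.84 ± 0.26 (adjusted p = 0.0223) and the glypican GPC6 fell by 0.26 ± 0.08 with RSAD2 siRNA. Each of these was lost in 5 of 23 alternatives. The co-receptor CDON, related to BOC, fell by 0.27 ± 0.07 with RSAD2 siRNA (adjusted p = 0.00341). HHIPL1 and HHIPL2, which resemble HHIP in sequence, had 9 to 43 and 26 to 64 counts per library and were not called with RSAD2 siRNA or insulin.

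**Figure D4:**
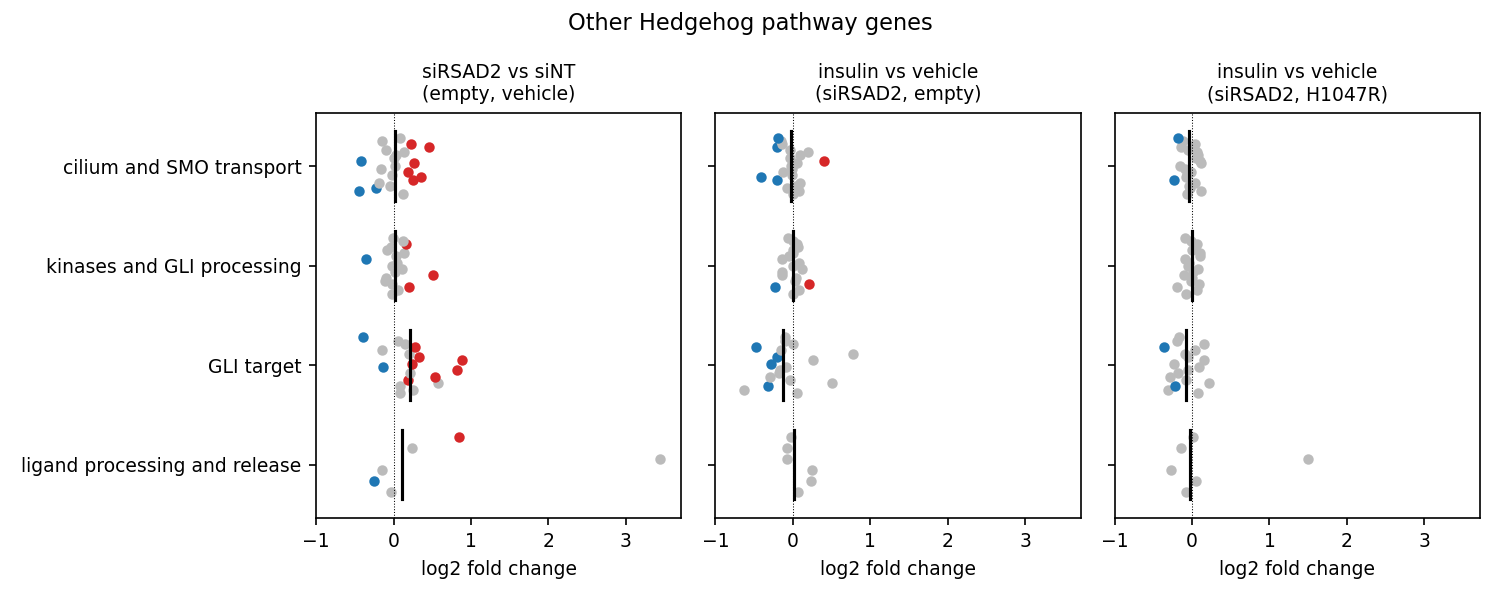
Log2 fold changes of tested pathway genes in 4 lists for RSAD2 siRNA and for insulin with each vector; each point is a gene, red and blue points passed the edgeR test as higher and lower, and black bars are list medians. The GLI target medians were 0.21, -0.13 and -0.08, and the point at 3.44 is LRP2, chosen after its value was seen, which had 0 to 4 counts and was not called.

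The pattern of HHIP over the 15 libraries was compared with that of 12075 other protein-coding genes with a mean of at least 1 CPM, by Pearson's r of log2 CPM. These libraries share the groups on which HHIP was chosen, so r is a description. The 5 genes most like HHIP were VAT1L (r = 0.963), PRNP (0.962), SFRP1 (0.962), CXCL8 (0.962) and BCL6 (0.961). CXCL8, the chemokine interleukin-8, had log2 fold changes of 1.13 with RSAD2 siRNA, and of -1.20 and -0.92 with insulin in empty-vector and H1047R cells. The values of BCL6, a transcriptional repressor, were 0.25, -0.31 and -0.23. Among the members r with HHIP was 0.776 for PTCH1, 0.619 for GAS1, 0.599 for GLI3, 0.573 for GLI2, 0.473 for BOC, 0.441 for SUFU, -0.376 for SMO and -0.712 for GLI1, and it was 0.858 for HHIP-AS1.

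None of the tested protein-coding neighbours of HHIP was called in its direction with RSAD2 siRNA or insulin. Downstream, starting 452.1 to 534.4 kb from the HHIP start, lie ABCE1, ANAPC10 and OTUD4. OTUD4 was lower with RSAD2 siRNA, by 0.19 on the log2 scale (adjusted p = 0.0141, edgeR), where HHIP was higher. ANAPC10 had -0.34 there (adjusted p = 0.111) and ABCE1 0.10 (adjusted p = 0.172). With insulin none of the 3 passed with either vector, and their log2 fold changes lay between -0.07 and 0.25.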

How the data were processed

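Paired-end mRNA libraries from 12Z cells were sequenced in 3 independent experiments per group, per the study's methods. The authors trimmed reads with cutadapt and Trim Galore, used STAR for alignment to hg38 and deposited raw gene counts per library, without normalisation. Tool versions were not stated, and the annotation release named is numbered as a mouse release although the identifiers are human. Reverse-stranded counts were used, as in the study. Of 60617 identifiers, 60357 matched GENCODE release 44, the source of symbols and coordinates. The 4 summary entries of each library were left out.

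A single model of all 15 libraries was fitted with edgeR 4.0.16 under R 4.3.3, with TMM scaling, 1 term per group, a filter of a mean of at least 1 count and the quasi-likelihood F test, two-sided, with Benjamini-Hochberg adjustment over 23184 genes and a threshold of 0.05. It had 10 residual degrees of freedom and a common biological coefficient of variation of 0.0571. SE is the log2 fold change over the root of F. Intervals are at 95% and n = 3 libraries per group. Whether groups overlapped was read for named genes only, and the share over all genes was not computed. Depth of 16.1 to 39.7 M counts limits the scarce genes GLI1 and HHIP-AS1 most. The fit was tested on simulated data.

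The members and lists were chosen with earlier results of these data known. HHIP has no test with insulin or for the interaction, since it was chosen there. From each list, at most 4 genes past the threshold with the smallest p were named, with the 3 protein-coding neighbours of HHIP on each side and the 5 genes most correlated with it; some of these are not reported here. Alternatives were DESeq2 1.42.0, RLE size factors, the edgeR filter or none, a threshold of 0.001, unstranded counts, compared groups only, a replicate block, and each library left out. Leaving out empty-vector vehicle library 3 and insulin library 2 together was added after the data were seen. Promoter windows came from RefSeq (GRCh38.p14) and were read in hg38 as well, with identical bases.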

Additional observations from a re-analysis of the deposited data

How the results depend on the processing

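Over 1896 values under these alternatives, 1793 kept their direction and side of the threshold, 58 lost it, 6 gained it, 5 moved and 34 changed sign. Values called in neither fit count as kept, and HHIP values without a test count as kept when within their SE. No value that changed sign passed the test in either fit. Of the members called with insulin in empty-vector cells, PTCH1, GLI3 and BOC lost the call in 5, 6 and 5 of 24 alternatives, and GAS1 in 0. The count of members called with insulin in empty-vector cells was 4, and it was 1 at a threshold of 0.001 and 1 with the compared groups only, where fewer libraries inform the spread. Leaving out single libraries gave 1 to 4. With insulin in H1047R cells the compared groups alone gave 2, against 1. With RSAD2 siRNA the count was 2, it was 2 to 3 without single libraries, and 3 without both doubted libraries. With H1047R in insulin-treated cells, the count of 0 became 1 (HHIP) with no filter, 1 without both doubted libraries and 0 to 1 without single libraries. The member gained was HHIP each time, and these libraries are among those on which it was chosen. Scaling moved the median of all genes by under 0.1 on the log2 scale.

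Sign changes lay near 0. With unstranded counts, PTCH1 was at 0.00418 and GLI2 at 0.00066 for H1047R with insulin. Without both doubted libraries, BOC was at 0.044 for RSAD2 siRNA, and PTCH1 at 0.040 and GAS1 at -0.034 for H1047R with insulin. Leaving out single libraries gave, for H1047R with insulin, -0.065 to 0.041 (PTCH1), -0.050 to 0.044 (GLI2), -0.19 to 0.12 (SMO), -0.059 to 0.043 (GLI3), -0.14 to 0.0021 (BOC) and -0.033 to 0.090 (GAS1). SMO ran from -0.062 to 0.076 and SUFU from -0.026 to 0.051 with insulin in H1047R cells, SMO from -0.092 to 0.21 with insulin in empty-vector cells and from -0.050 to 0.068 for H1047R with vehicle, and BOC from -0.12 to 0.044 for RSAD2 siRNA. The interaction ran from -0.20 to 0.10 for SMO and from -0.082 to 0.13 for GLI1. The cause of these changes was not tested.

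Same-numbered libraries of different groups deviated together with a median r of -0.0127 over 18 pairs, and 2 of them exceeded 0.1. Both lay between empty-vector insulin and H1047R insulin. There the same-numbered pairs had r of 0.156, 0.138 and 0.0871, and the other pairs had -0.147 to -0.00434. These values do not settle whether replicate numbers 1 to 3 mark shared experiments. With the replicate number as a block in the 12 RSAD2 siRNA libraries, 4 members were called with insulin in empty-vector cells and 1 in H1047R cells, and SMO was at -0.00058 in the latter. The siNT libraries share no number with the others.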
